A study of Bos taurus with 46 samples.

Results

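miR-142 and miR-223 are miRNAs of white blood cells, and both circulate in plasma. The rows named bta-miR-142-5p, bta-miR-142-3p and bta-miR-223 were taken from the deposited tables, which hold 870 miRNA names. All 3 were present, and all 3 passed the filter on low values that kept 214 names for testing. Small RNA was sequenced from the plasma of Holstein-Friesian heifers aged 14 to 17 months, whose oestrus had been synchronised with an intravaginal progesterone insert (CIDR), buserelin and cloprostenol, so that non-pregnant and pregnant animals shared this treatment. The 8 non-pregnant heifers were sham-inseminated and gave samples over an oestrous cycle, labelled NP0, NP8 and NP16 for its Days 0, 8 and 16. The 11 pregnant heifers were inseminated with frozen semen and were sampled on Days 16 and 24 of pregnancy (P16 and P24), and the same animals carry the same number on each day. The comparisons asked whether circulating miRNAs differed between early pregnancy and the oestrous cycle, and between days within each.

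A miRNA hairpin can give a mature strand from either arm, named 5p and 3p, and for many hairpins one strand is loaded into the silencing complex and kept while the other is degraded. miR-142 is expressed almost only in blood-forming lineages in mouse and human, where its loss disturbs lymphocyte, mast cell and platelet development. miR-223 is a myeloid miRNA, most abundant in neutrophils and monocytes and also plentiful in platelets, and in mouse it restrains the production and activity of granulocytes. Plasma is cell-free, and miRNAs reach it in vesicles, in protein complexes or by cell breakdown. More cells of a type and more RNA released per cell cannot be told apart in such samples.

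The mature strands of miR-142 were listed on the minus strand of chromosome 19 of the UMD 3.1 bovine genome, miR-142-5p at chr19:8517005-8517024 and miR-142-3p at chr19:8516964-8516985, with 19 bases between them. miR-223 was listed on the minus strand of the X chromosome, at chrX:56723527-56723548. In the RefSeq gene table for the ARS-UCD2.0 assembly, MIR142 lies within the span of the protein-coding gene TSPOAP1 and of a long non-coding RNA gene, and MIR223 lies within the span of VSIG4, a complement receptor gene of tissue macrophages, and of another long non-coding RNA gene. That table does not give exons, so whether the hairpins are intronic was not analysed here.

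The 45 libraries that were compared held 6.51e+05 to 5.44e+06 miRNA reads, which made up 52.5 to 80.1% of the mapped reads. The library with the fewest reads, P24 of animal 31, still gave 14175 reads of miR-142-5p, 936 of miR-223 and 192 of miR-142-3p. Levels are given as RPM (reads per 1000000 mapped reads), the reads of a miRNA scaled to the mapped reads of its library. The P16 library of animal 28, which was low throughout on this scale, was left out. In the left-out library miR-142-5p was at 6160 RPM, miR-142-3p at 100.2 RPM and miR-223 at 317 RPM, each below the range of the other 45 libraries.

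miR-142-5p was one of the most abundant miRNAs of bovine plasma, and it had the smallest spread of the 3. It ranked between 4 and 12 among all names in each library and took 2.94 ± 0.632% of the miRNA reads (mean ± SD over 45 libraries of 19 animals). miR-223 ranked between 46 and 76 and took 0.180 ± 0.0537% of the miRNA reads. miR-142-3p ranked between 63 and 111 and took 0.0627 ± 0.0284% of the miRNA reads. The strand from the 5p arm thus supplied between 95.5 and 99.0% of the miR-142 reads of a library, with a median of 51.7 miR-142-5p reads for each miR-142-3p read. How evenly the library preparation captured the different strands was not tested, so these levels between miRNAs are read counts and not molar amounts.

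**Figure D1:**
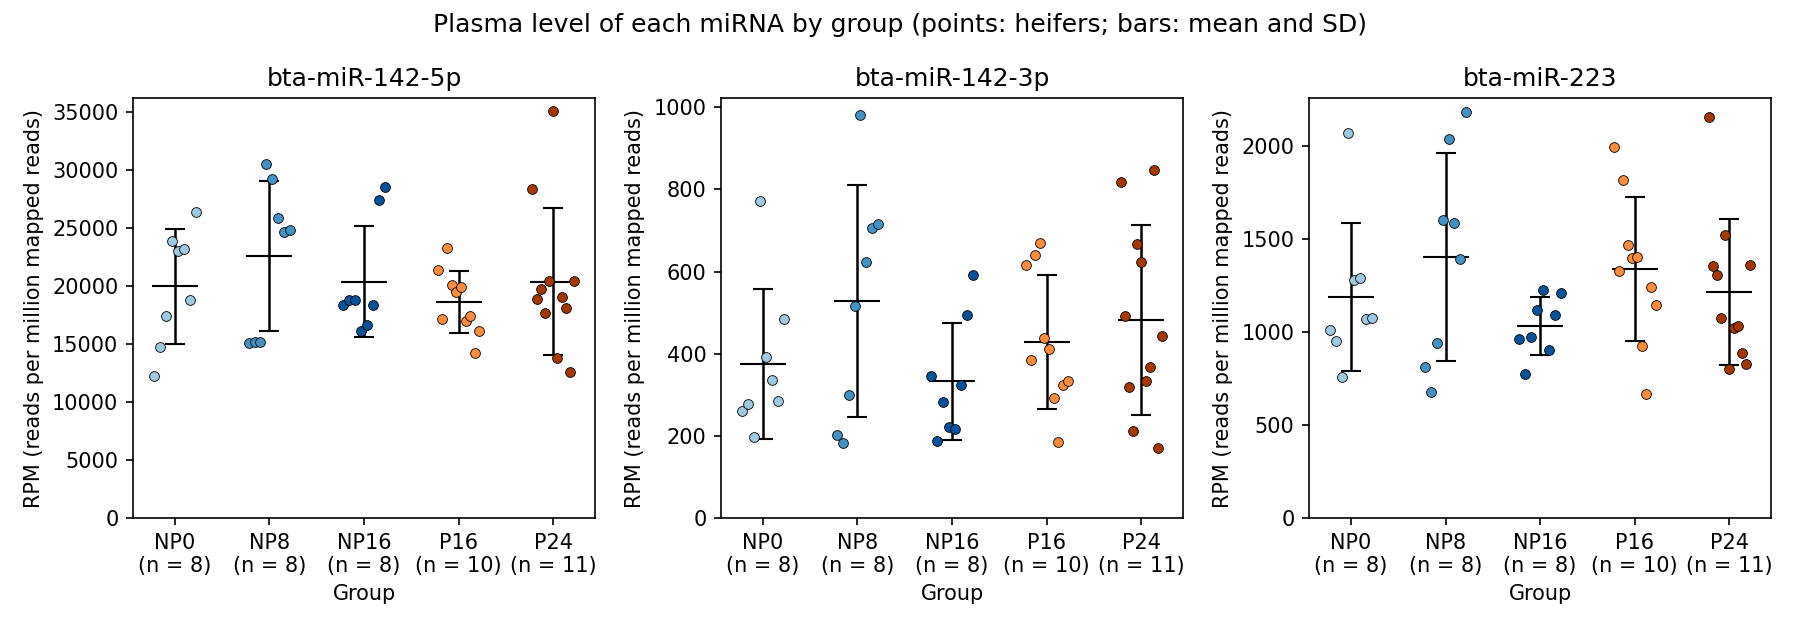
Levels of bta-miR-142-5p, bta-miR-142-3p and bta-miR-223 in plasma, in RPM (reads per 1000000 mapped reads, linear axes from 0), by group. Each point is 1 heifer and the bars give the mean and SD. The groups overlap for each of the 3 miRNAs, and the P24 library at 35084 RPM is the highest of all for miR-142-5p.

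Across the non-pregnant days, miR-142-5p lay between 12281 and 26399 RPM in NP0 with a median of 20924 RPM, between 15142 and 30534 RPM in NP8 with a median of 24766 RPM, and between 16141 and 28515 RPM in NP16 with a median of 18605 RPM. In pregnancy it lay between 14255 and 23299 RPM in P16 with a median of 18474 RPM, and between 12574 and 35084 RPM in P24 with a median of 19062 RPM. The ranges of the 5 groups overlapped, and P16 was the tightest of them. In order of the mean, NP8 stood first at 22586 ± 6464 RPM (SD, n = 8), followed by P24 at 20386 ± 6336 RPM (n = 11), NP16 at 20386 ± 4794 RPM (n = 8), NP0 at 19992 ± 4933 RPM (n = 8) and P16 at 18631 ± 2701 RPM (n = 10). Each neighbouring pair in that order differed by less than the SD of either group.

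miR-142-3p varied more. It lay between 197 and 772 RPM in NP0 (median 310.3), between 182 and 981 RPM in NP8 (median 570) and between 189 and 591 RPM in NP16 (median 303). In P16 it lay between 185 and 670.2 RPM (median 399) and in P24 between 170.3 and 848 RPM (median 444). The order of the means was NP8 at 529 ± 282 RPM, P24 at 481 ± 231 RPM, P16 at 430 ± 163 RPM, NP0 at 376 ± 183 RPM and NP16 at 333 ± 142.3 RPM. Neighbours in this order also differed by less than their SD, and NP8 was split between 3 heifers near or below 300.8 RPM and 5 at or above 515 RPM.

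miR-223 lay between 760.4 and 2071 RPM in NP0 (median 1073), between 679 and 2184 RPM in NP8 (median 1490) and between 775 and 1227 RPM in NP16 (median 1033). In P16 it lay between 668 and 1994 RPM (median 1366) and in P24 between 805 and 2156 RPM (median 1075). NP16 had the smallest spread, at 1034 ± 157 RPM. In P16, at 1341 ± 387 RPM, 2 of the 10 heifers fell inside the NP16 range, with 7 above it and 1 below. This count holds for RPM. After the scaling used in the tests below the overlap was wider, through the NP16 value of heifer 21. The means of the other groups were 1404 ± 557 RPM in NP8, 1215 ± 393 RPM in P24 and 1190 ± 395 RPM in NP0.

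None of the 3 miRNAs passed the test between Day 16 of pregnancy and Day 16 of the cycle. The groups were compared on the read counts with edgeR's quasi-likelihood test after TMM scaling, which sets libraries to a common level by the bulk of their miRNAs, with p-values adjusted over the 214 miRNAs (Benjamini-Hochberg) and an FDR limit of 0.1. In P16 against NP16 the log2 fold change of miR-142-5p was -0.22 ± 0.12 (SE, edgeR adjusted p = 0.638), that of miR-142-3p 0.26 ± 0.20 (edgeR adjusted p = 0.799) and that of miR-223 0.24 ± 0.13 (edgeR adjusted p = 0.638). Of all 214 miRNAs, 0% passed the limit in this comparison, and 15 had an unadjusted p under 0.05. With DESeq2 in place of edgeR, 1 miRNA passed. In fold terms the 95% confidence intervals ran from 0.726 to 1.02 for miR-142-5p, from 0.903 to 1.59 for miR-142-3p and from 0.979 to 1.42 for miR-223. The estimates for miR-142-5p and miR-223 thus had opposite signs, with unadjusted edgeR p = 0.0730 and p = 0.0793. By p these ranked 21 and 24 among the 214 miRNAs. Scaling by library totals in place of TMM moved the median of all tested miRNAs in this comparison by 0.17 on the log2 scale. With it miR-142-5p stood at -0.061, miR-142-3p at 0.42 and miR-223 at 0.44 (edgeR adjusted p = 0.856, 0.500 and 0.394). With limma on log2(RPM + 1) they stood at -0.11, 0.37 and 0.33. On that RPM scale the median of all tested miRNAs was 0.12, against 0.02 in the main fit. After TMM scaling, the log2 level of miR-223 lay between 10.47 and 11.11 in NP16 and between 10.38 and 11.22 in P16. The NP16 range of miR-223 thus covered most of the P16 range on this scale, but its top was set by heifer 21. The next highest NP16 value was 10.78, in heifer 35. Without NP16 heifer 21 the log2 fold change of miR-223 was 0.31 (edgeR adjusted p = 0.677).

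Against the cycle as a whole the differences were smaller. For NP the 3 libraries of a heifer were combined, by summing reads or averaging RPM, and each heifer counts once (n = 8). miR-142-5p averaged 20988 ± 4155 RPM in NP, with a lowest value of 15258, a median of 22728 and a highest of 26583 RPM. miR-142-3p averaged 413 ± 144 RPM in NP (lowest 217, median 462, highest 597 RPM). miR-223 averaged 1209 ± 310 RPM in NP (lowest 802, median 1224, highest 1597 RPM). The P16 and P24 ranges overlapped these for all 3 miRNAs.

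In P16 against NP, 2 of 214 miRNAs passed the FDR limit (0.935%), and neither was miR-142 or miR-223. The log2 fold changes were -0.13 ± 0.09 (SE) for miR-142-5p, 0.08 ± 0.18 for miR-142-3p and 0.15 ± 0.13 for miR-223, with edgeR adjusted p-values of 0.820, 0.974 and 0.820. The interval for miR-142-5p, from 0.800 to 1.05-fold, was the tightest of the 3. Those of miR-142-3p (0.812 to 1.38-fold) and miR-223 (0.916 to 1.34-fold) left room for larger differences.

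By Day 24 of pregnancy the levels still lay close to those of the cycle. In P24 against NP the log2 fold changes were -0.07 ± 0.11 (SE) for miR-142-5p and 0.21 ± 0.23 for miR-142-3p, both with an edgeR adjusted p of 0.935. miR-223 stood at -0.01 ± 0.16 (edgeR adjusted p = 0.982), with an interval of 0.794 to 1.25-fold. The interval of miR-142-5p was 0.816 to 1.11-fold and that of miR-142-3p 0.824 to 1.62-fold. Of all miRNAs tested 0% passed, and 7 had an unadjusted p under 0.05. DESeq2 also called 0. Without the P24 library of animal 24, 2 miRNAs passed, and miR-223 stood at 0.07.

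**Figure D2:**
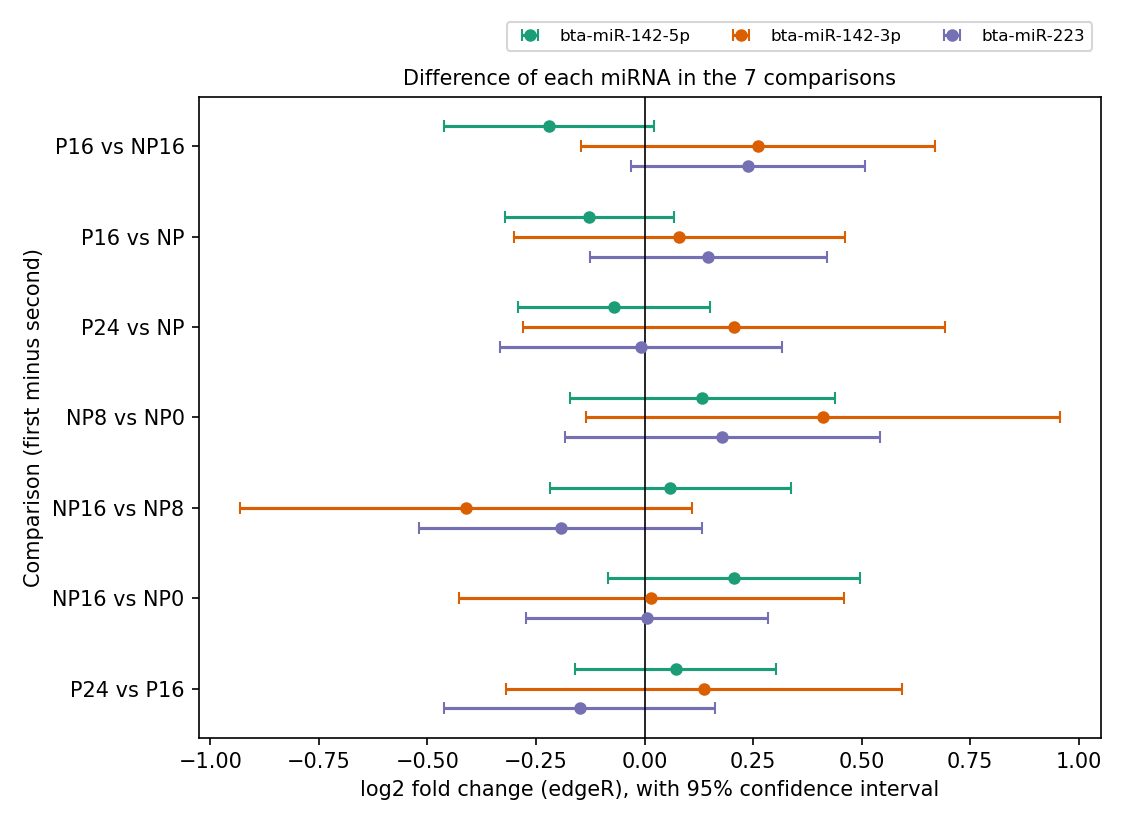
Log2 fold changes of the 3 miRNAs in each of the 7 comparisons, from edgeR, with 95% confidence intervals (first group minus second; the vertical line marks no difference). The intervals of all 3 miRNAs include 0 in each comparison, and those of miR-142-3p are the widest.

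Within the oestrous cycle the 3 miRNAs had their highest mean RPM on Day 8, but none of them passed the edgeR test between any pair of days. These fits between days did not pair the libraries of a heifer. From Day 0 to Day 8 the RPM of miR-142-5p was higher in 6 of 8 heifers, and that of miR-142-3p and of miR-223 in 5 of 8 each. The log2 fold changes of NP8 against NP0 were 0.13 ± 0.15 (SE) for miR-142-5p, 0.41 ± 0.26 for miR-142-3p and 0.18 ± 0.17 for miR-223, with edgeR adjusted p-values of 0.693, 0.615 and 0.684. For miR-142-3p the 95% interval reached from 0.911 to 1.94-fold, the widest of the 3. In this comparison 0% of the 214 miRNAs passed by edgeR, 19 had an unadjusted p under 0.05 and DESeq2 called 1.

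From Day 8 to Day 16 the RPM of miR-142-3p was lower in 6 of 8 heifers and that of miR-223 in 5 of 8, while miR-142-5p was higher in 5 of 8. In heifer 22 miR-142-3p went from 981 RPM on Day 8 to 218 RPM on Day 16, and in heifer 34 from 707 to 495 RPM. The log2 fold changes of NP16 against NP8 were 0.06 ± 0.13 (SE) for miR-142-5p, -0.41 ± 0.25 for miR-142-3p and -0.19 ± 0.16 for miR-223, with edgeR adjusted p-values of 0.919, 0.889 and 0.889. The small positive value of miR-142-5p depended on the scaling, being -0.13 with library totals, where the median of all miRNAs also moved, by -0.17. Without heifer 18 it was -0.07 and without heifer 35 it was -0.01. Here 0% of the miRNAs passed by edgeR, 5 had an unadjusted p under 0.05 and DESeq2 called 0.

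Over the whole interval from Day 0 to Day 16 the log2 fold changes were 0.21 ± 0.14 (SE) for miR-142-5p, 0.02 ± 0.21 for miR-142-3p and 0.01 ± 0.13 for miR-223, with edgeR adjusted p-values of 0.617, 0.985 and 0.985. With library totals they were -0.01, -0.21 and -0.25, where the median of all miRNAs moved by -0.23, so that the direction of none of the 3 is fixed by these data. The share passing was 0% by edgeR, with 12 miRNAs at an unadjusted p under 0.05 and 3 called by DESeq2.

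**Figure D3:**
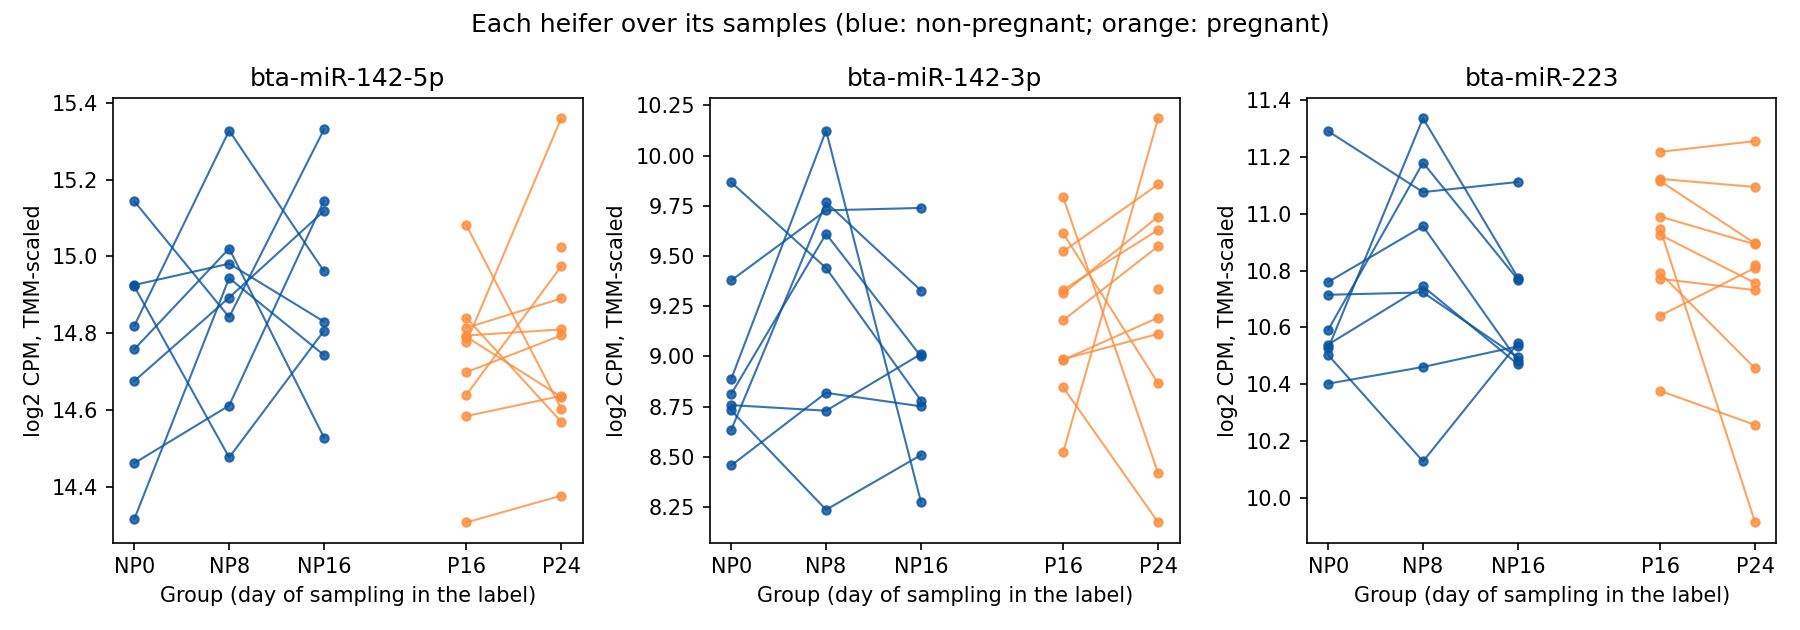
TMM-scaled log2 CPM (counts per 1000000) of the 3 miRNAs in each heifer on the days sampled. Each line joins the libraries of 1 heifer, blue for the 8 non-pregnant and orange for the pregnant animals, and the P16 library left out is not drawn. In miR-223, 8 of the 10 complete pregnant pairs run downwards.

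Between Days 16 and 24 of pregnancy, 10 heifers had both libraries. By RPM miR-142-5p was higher on Day 24 in 6 of them, miR-142-3p in 7 and miR-223 in 6. On the TMM scale miR-142-5p and miR-142-3p were each higher in 7 of 10, but miR-223 in only 2 of 10. The count of heifers with higher miR-223 thus depended on the scale. Its log2 fold change between the groups stayed negative in every setting, between -0.20 and -0.10, and was -0.14 with limma on log2(RPM + 1). The log2 fold changes of P24 against P16 were 0.07 ± 0.11 (SE), 0.14 ± 0.22 and -0.15 ± 0.15 for miR-142-5p, miR-142-3p and miR-223, each with an edgeR adjusted p of 0.999. That fit took all 11 P24 and 10 P16 libraries and did not pair them by heifer. Without heifer 24 the value for miR-142-5p was -0.01, and without heifer 29 that for miR-142-3p was -0.09. The share passing was 0% by edgeR, with 3 miRNAs at an unadjusted p under 0.05, and DESeq2 called 0. With the heifer as a block, over the 10 pairs, edgeR gave 0.04 for miR-142-5p, 0.06 for miR-142-3p and -0.18 for miR-223.

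The 3 miRNAs differed in spread. Over the 45 libraries the SD of the TMM-scaled log2 CPM was 0.25 for miR-142-5p, 0.32 for miR-223 and 0.52 for miR-142-3p, against a median of 0.42 for the 214 miRNAs tested. Counted from the least variable, miR-142-5p ranked 15, miR-223 ranked 50 and miR-142-3p ranked 163. Between the lowest and the highest library miR-142-5p spanned 2.08-fold, miR-223 2.67-fold and miR-142-3p 4.03-fold. miR-142-3p also had the fewest reads of the 3, at 192 to 4208 per library, and the part of read number in its spread was not tested.

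miR-223 differed most between animals relative to the spread within them. Among the 8 non-pregnant heifers the intraclass correlation over the 3 days, the share of the variance that lies between animals, was 0.45 for miR-223, 0.21 for miR-142-3p and 0.03 for miR-142-5p. Among the 10 pregnant heifers with both days it was 0.44 for miR-223, 0.27 for miR-142-5p and -0.18 for miR-142-3p, a value below 0 meaning that the 2 days of a heifer were no more alike than those of different heifers. Heifer 10 had the highest miR-223 of its group on both days, 1994 RPM on Day 16 and 2156 RPM on Day 24. Heifer 29 was lowest on Day 16, at 668 RPM, and stood at 891 RPM on Day 24.

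Averaged per animal, the arms of miR-142 went together, and miR-142-3p also went with miR-223. Over the 19 heifers the mean log2 CPM of miR-142-5p and miR-142-3p gave r = 0.66 (permutation p = 0.00198, adjusted over 7 relations 0.0110) and Spearman's rho = 0.68 (permutation p = 0.00163, adjusted 0.0114), with r = 0.88 within the 8 non-pregnant and r = 0.73 within the 11 pregnant animals. For miR-142-3p and miR-223, r was 0.58 (permutation p = 0.00933, adjusted 0.0163) and rho was 0.56 (permutation p = 0.0144, adjusted 0.0505), with r = 0.78 and r = 0.41 within the same groups. miR-142-5p and miR-223 gave r = 0.16 (permutation p = 0.503, adjusted 0.503) and rho = 0.20 (permutation p = 0.412, adjusted 0.481), with r = 0.69 in the non-pregnant and r = -0.02 in the pregnant animals. Without the 2 animals farthest from the median of the first measure, r was 0.45, 0.51 and 0.07 for these pairs in turn. All these levels share a scale within each library.

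The arms of miR-142 did not have each other as nearest neighbour on either scale, though how alike they were depended on the scale. By Spearman correlation over the 45 libraries, given as a description since libraries of 1 heifer are not independent and all values of a library share its scaling, miR-142-5p was most like miR-32 (rho = 0.69), miR-425-5p (0.58), miR-151-3p (0.53), miR-128 (0.48) and miR-16b (0.48). Its own 3p arm ranked 30 of 213 for likeness to it, with rho = 0.29. On the log2(RPM + 1) scale the same pair gave rho = 0.77, and the 3p arm ranked 6. On the TMM scale miR-142-3p was most like miR-21-3p (rho = 0.81) and miR-21-5p (0.77), the arms of a miRNA that is abundant in many tissues and in activated leukocytes, followed by miR-345-3p (0.76), miR-2285k (0.73) and miR-374a (0.72). miR-223 was most like miR-421 (rho = 0.78), miR-301b (0.74), miR-330 (0.74), miR-374b (0.72) and miR-26b (0.70). On the log2(RPM + 1) scale, 3, 4 and 2 of the 5 names stayed for miR-142-5p, miR-142-3p and miR-223.

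Other miRNAs of blood cells were examined beside them from 3 lists, all of whose rows that entered the tests are bovine names. Among 9 other leukocyte miRNAs (miR-150, miR-146a, miR-146b, miR-155, miR-342, miR-181a, miR-23a, miR-27a-3p and miR-21-5p), edgeR called 0 in each of the 7 comparisons, and at most 1 had an unadjusted p under 0.05 in any. miR-146b, which is induced by inflammatory signalling, had the largest estimates, at -0.48 ± 0.20 (SE, edgeR adjusted p = 0.638) in P16 against NP16 and 0.61 ± 0.24 (edgeR adjusted p = 0.617) in NP16 against NP0. The list took 5.37 ± 1.15% of miRNA reads over the 45 libraries, between 2.52 and 8.73%. Their median correlation was 0.19 with miR-142-5p, 0.00 with miR-142-3p and 0.02 with miR-223, against 0.03, -0.06 and -0.07 for all miRNAs tested. The members of the list went both ways. The most alike of them was miR-21-5p for miR-142-3p (rho = 0.77, rank 2 of 213) and miR-155, a miRNA of activated lymphocytes, for miR-142-5p (rho = 0.44, rank 12) and for miR-223 (rho = 0.45, rank 29).

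Red cell and platelet miRNAs were examined in the same way. The erythrocyte list (miR-92a, miR-16b, miR-451, miR-16a, miR-486 and miR-144) took between 10.7 and 51.9% of miRNA reads, and the platelet list (miR-126-3p, miR-126-5p, miR-191, miR-197, miR-24-3p, miR-199a-3p and miR-320a) between 3.56 and 9.58%. edgeR called 0 of the 6 and 0 of the 7 tested in each of the 7 comparisons, with at most 1 of each list at an unadjusted p under 0.05 in any. miR-486 had the largest estimate of the erythrocyte list in P16 against NP16, at -0.62 ± 0.35 (SE, edgeR adjusted p = 0.638), and all 6 of its members were negative there, with a median of -0.35 against 0.02 for all miRNAs. In NP16 against NP0 and against NP8 all 6 were positive, with medians of 0.44 and 0.37 against 0.02 in both. The largest platelet estimate was 0.45 ± 0.20 (edgeR adjusted p = 0.617) for miR-126-3p in NP16 against NP0. The platelet miRNA most like miR-223 was miR-191, with rho = 0.62 and rank 8 of 213. miR-191 was also the platelet miRNA most like miR-142-5p (rho = 0.45, rank 11) and miR-142-3p (rho = 0.48, rank 34). The median correlation of the platelet list was -0.002 with miR-142-5p, -0.11 with miR-142-3p and 0.14 with miR-223. That of the erythrocyte list was 0.14, -0.48 and -0.31 in turn. The highest rho in the erythrocyte list was 0.48 with miR-142-5p (miR-16b, rank 5). With miR-142-3p it was -0.23 (miR-16a, rank 141), and with miR-223 -0.008 (miR-16a, rank 96).

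The balance of the miR-142 arms leaned less to the 5p strand on Day 16 of pregnancy than on Day 16 of the cycle, by an amount that did not pass the limit after adjustment. Expressed as log2 of miR-142-5p reads over miR-142-3p reads of the same library, which needs no scaling, it lay between 5.59 and 6.64 in NP16 (median 5.94) and between 4.91 and 6.56 in P16 (median 5.48). In reads this was 48.3 to 99.7 miR-142-5p reads per miR-142-3p read in NP16 and 30.02 to 94.3 in P16. The groups overlapped, with 6 of the 10 P16 libraries below the lowest NP16 library and 9 of 10 below the NP16 median. The means were 6.01 ± 0.34 (SD, n = 8) in NP16 and 5.52 ± 0.45 (SD, n = 10) in P16, a difference of -0.49 with p = 0.0245 (two-sided exact permutation test) and an adjusted p of 0.171 over the 7 comparisons. The P16 library with the highest ratio was that of animal 29, at 6.56. Without it the difference was -0.60 with an adjusted p of 0.00691 (exact permutation test), so this call rests on whether that library is counted.

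**Figure D4:**
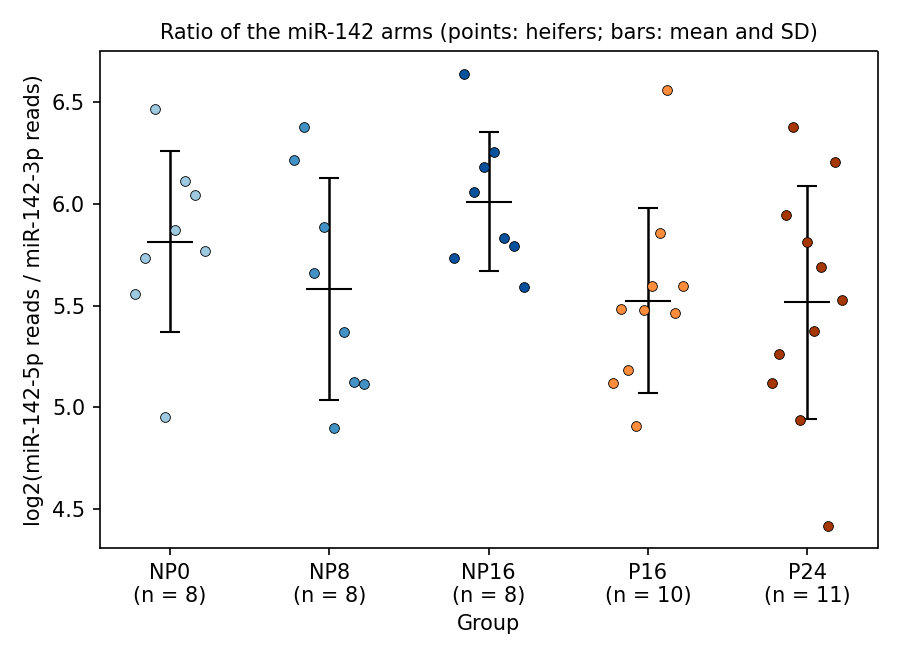
Ratio of the miR-142 arms, as log2 of miR-142-5p reads over miR-142-3p reads, by group. Each point is 1 heifer, and the bars give the mean and SD. NP16 has the highest mean, at 6.01, and the P16 library of animal 29 stands above the other P16 libraries, at 6.56.

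In the other comparisons the arm ratio did not pass the limit. It averaged 5.81 ± 0.45 in NP0 (4.95 to 6.47, n = 8), 5.58 ± 0.54 in NP8 (4.90 to 6.38, n = 8) and 5.52 ± 0.57 in P24 (4.42 to 6.38, n = 11), and 5.73 ± 0.32 over the cycle in NP (5.41 to 6.31, n = 8). From Day 8 to Day 16 of the cycle it was higher in 7 of 8 heifers, with a mean difference of 0.43 (exact permutation p = 0.0810, adjusted 0.283), which is larger than the SD of NP16 and smaller than that of NP8. An exact sign-flip test of the differences within heifers gave p = 0.0547 (adjusted 0.191). P16 against NP gave -0.21 (exact permutation p = 0.292, adjusted 0.420) and P24 against NP -0.22 (exact permutation p = 0.353, adjusted 0.420). P24 and P16 differed by -0.01 (exact permutation p = 0.971, adjusted 0.971), and the ratio was higher on Day 24 in 5 heifers and lower in 5. Without heifer 29, whose ratio was 6.56 on Day 16 and 4.42 on Day 24, the highest and the lowest of their groups, the P24 against P16 difference was 0.22.

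The arm ratio moved with the share of reads from red cell miRNAs. This relation was examined after the values had been seen. Within each group, where every library is a different heifer, the ratio and the erythrocyte list share gave r = 0.81 in NP0 (rho = 0.81), r = 0.90 in NP8 (rho = 0.88), r = 0.88 in NP16 (rho = 0.86), r = 0.79 in P16 (rho = 0.56) and r = 0.66 in P24 (rho = 0.63). The permutation p-values of r, exact in the groups of 8, were 0.0157, 0.00330, 0.00265, 0.00732 and 0.0258, or 0.0295, 0.0202, 0.0202, 0.0202 and 0.0429 adjusted over 15 relations. Those of rho were 0.0218, 0.00724, 0.0107, 0.0964 and 0.0441, or 0.0467, 0.0362, 0.0402, 0.145 and 0.0764 adjusted (permutation tests). Without the 2 libraries farthest from the median share, r was 0.70, 0.68, 0.79, 0.27 and 0.60, so in P16 the relation rests on those libraries.

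**Figure D5:**
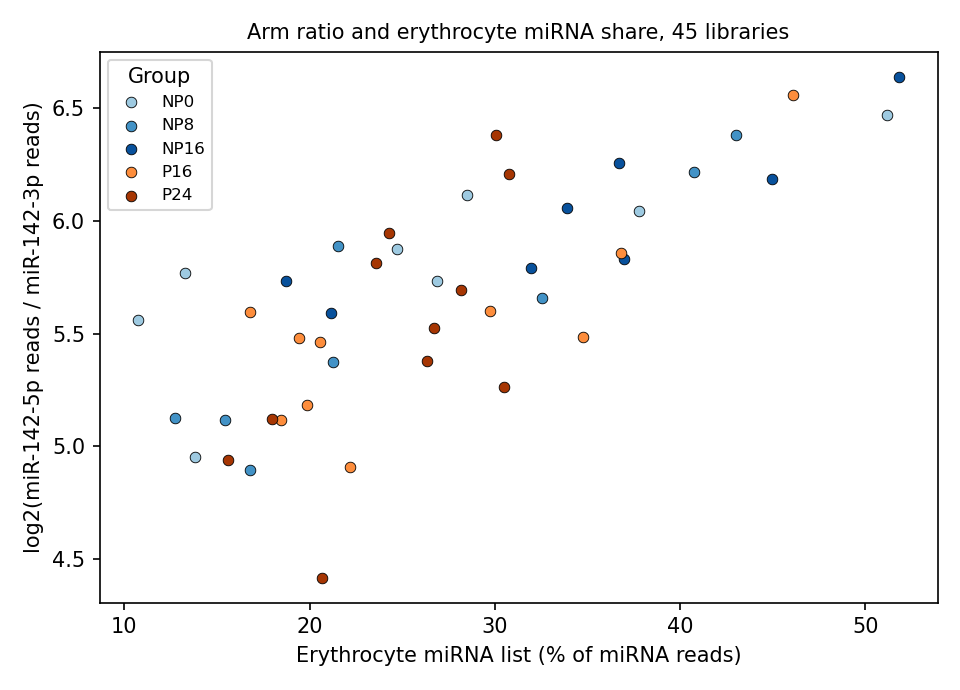
Ratio of the miR-142 arms (log2 of miR-142-5p over miR-142-3p reads) against the share of miRNA reads taken by the erythrocyte list, in percent, for the 45 libraries, coloured by group. The libraries run from low share and low ratio to the NP16 library at 51.9% and 6.64, and the P24 library of animal 29 lies lowest, at 4.42.

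The erythrocyte share stood higher in NP16, at 34.5 ± 11.1% (SD, n = 8, 18.7 to 51.9%), than in P16, at 26.5 ± 9.86% (SD, n = 10, 16.8 to 46.1%), and the P16 library of animal 29 had the highest share of its group. It was 25.9 ± 13.8% in NP0, 25.5 ± 11.7% in NP8 and 25.0 ± 5.13% in P24. The reads of miR-451 per miR-23a read averaged 7.54 ± 4.10 (SD) in NP16 and 5.18 ± 2.22 in P16. From PCR of these miRNAs and optical density, the authors placed all profiled samples in the normal range of plasma without haemolysis. The part of red cell miRNAs in the arm ratio difference was not tested. The ratio also ran against the platelet list share, with r = -0.89 in NP0, r = -0.87 in NP8 and r = -0.84 in NP16 (permutation p = 0.00600, 0.00551 and 0.0105, exact, adjusted 0.0202, 0.0202 and 0.0225), but r = -0.57 in P16 and r = -0.16 in P24 (permutation p = 0.0822 and 0.640, adjusted 0.112 and 0.686). Spearman's rho was -0.74, -0.90, -0.88, -0.53 and -0.30 (permutation p = 0.0458, 0.00456, 0.00724, 0.122 and 0.372, adjusted 0.0764, 0.0362, 0.0362, 0.167 and 0.464). Without the 2 libraries farthest from the median share, r was -0.41, -0.95, -0.80, -0.72 and 0.18, so in NP0 the relation rests on those libraries. With the leukocyte list share r was -0.53, -0.80, -0.84, -0.38 and -0.04 in the same order of groups (permutation p = 0.181, 0.0286, 0.00806, 0.280 and 0.902, adjusted 0.227, 0.0429, 0.0202, 0.323 and 0.902). Here rho was -0.33, -0.81, -0.81, -0.21 and -0.22 (permutation p = 0.428, 0.0218, 0.0218, 0.558 and 0.520, adjusted 0.494, 0.0467, 0.0467, 0.558 and 0.557), and r without the 2 farthest libraries was -0.20, -0.44, -0.52, -0.58 and -0.26. The 3 shares are parts of the same total and are not independent of each other.

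Of the arms, miR-142-3p ran more strongly against the red cell share than miR-142-5p did. Over the animal means of the 19 heifers, the log2 CPM of miR-142-3p and the erythrocyte share gave r = -0.60 (permutation p = 0.00746, adjusted over 7 relations 0.0163) and rho = -0.49 (permutation p = 0.0355, adjusted 0.0755), with r = -0.84 in the non-pregnant and r = -0.27 in the pregnant animals. miR-223 gave r = -0.49 (permutation p = 0.0313, adjusted 0.0438) and rho = -0.47 (permutation p = 0.0432, adjusted 0.0755), with r = -0.66 and r = -0.33. miR-142-5p gave r = -0.20 (permutation p = 0.417, adjusted 0.486) and rho = -0.14 (permutation p = 0.558, adjusted 0.558), with r = -0.56 and r = -0.05. The arm ratio itself gave r = 0.64 (permutation p = 0.00313, adjusted 0.0110) but rho = 0.32 (permutation p = 0.186, adjusted 0.260), with r = 0.91 and r = 0.35. Without the 2 animals farthest from the median share r fell to -0.32, -0.28, -0.14 and 0.32 in turn, so that these relations over animal means rest on those animals.

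One library stood apart in its miR-142-5p reads per miR-223 read. In P24 of animal 24, miR-142-5p was at 35084 RPM, the highest of the 45 libraries, while miR-223, at 805 RPM, was the lowest of its group. That gave 43.6 miR-142-5p reads per miR-223 read, where the other 44 libraries lay between 10.7 and 26.1. Its platelet share was 6.62%, its erythrocyte share 23.6%, and its leukocyte list share, at 8.73%, was the highest of all libraries. It had 11.7 miR-451 reads per miR-23a read, the highest value of P24. On Day 16 the same heifer had 14.2 miR-142-5p reads per miR-223 read. By the 3p arm, P24 of animal 29 was lower, at 1.05 miR-223 reads per miR-142-3p read, against 1.29 in P24 of animal 24.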

How the data were processed

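Plasma small RNA of 46 libraries was grouped by the day, subject and group in the labels. The deposited values are counts of reads for each mature miRNA, made by the authors from trimmed single-end reads with sRNAtoolbox on UMD 3.1 (as the submitters' processing notes also name), mapping to mature bovine and, for homologues, human miRNAs with 1 mismatch allowed. The deposited RPM values are those counts as reads per 1000000 mapped reads, by the authors. The assignment of reads to paralogues and strand variants is that of the authors.

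The counts were tested in edgeR 4.0.16 (R 4.3.3; TMM, glmQLFit, glmQLFTest, Benjamini-Hochberg, FDR limit 0.1) over names with at least 25 RPM in at least 25% of the libraries of 1 or more groups, 214 of 870. Each fit held only the groups compared. The main fits and the permutation test of the arm ratio did not pair the libraries of a heifer, and a heifer block was an alternative. Alternatives were DESeq2 1.42.0, limma 3.58.1 on log2(RPM + 1), exact permutation tests, other scalings and filters, and each animal left out. The arm ratio was tested by two-sided exact permutation, and relations by 100000 permutations or, for 8 libraries, exactly. The edgeR and exact permutation tests were tested on simulated data with known changes.

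Same-numbered libraries come from the same heifer, and their deviations from the group means correlated with a median r of 0.23 to 0.44. No 2 libraries were identical. miRNAs named were the members, the 5 most alike to each, and list members with the largest change. The members and lists were chosen with earlier results of these data known.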

Additional observations from a re-analysis of the deposited data

Results flagged for a closer look

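The RPM of the 3 miRNAs and the arm ratio were checked for a value far from the rest, each in NP0, NP8, NP16, P16 and NP. P24 was not checked. In these 20 sets of values 1 stood out. miR-223 in the NP0 library of heifer 21 was at 2071 RPM, where the other 7 heifers of NP0 lay between 760.4 and 1294 RPM. Its gap to the next value was 0.593 of the group's range, above the critical value of 0.526 for 8 samples. Chance alone gives about 1 such case in 20. The same library had the highest miR-142-3p of its group, at 772 RPM, and the lowest arm ratio, at 4.95, and its erythrocyte list share was 13.8%. On Days 8 and 16 heifer 21 had 1601 and 1119 RPM of miR-223.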

How the results depend on the processing

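None of the 3 miRNAs passed the FDR limit in any comparison under any alternative. Several small log2 fold changes changed sign, and the cause was not tested. For miR-223 in P24 against NP the value was 0.040 with library totals and 0.018 with DESeq2 size factors and with DESeq2, and -0.074 to 0.072 with an animal left out. For miR-142-5p in NP16 against NP8 it was -0.13 with library totals and -0.12 with limma at either pseudocount and with exact permutation tests on log2(RPM + 1), and -0.067 to 0.13 with an animal left out. For miR-142-5p in NP16 against NP0 it was -0.0099 with library totals. For miR-142-3p in NP16 against NP0 it was -0.21 with library totals, -0.023 with DESeq2 size factors and with DESeq2, -0.022 with the 100 RPM filter, -0.16 with limma at either pseudocount and exact permutation, -0.0016 with no filter, and -0.19 to 0.20 with an animal left out. For miR-223 in NP16 against NP0 it was -0.25 with library totals, -0.028 with DESeq2 size factors and with DESeq2, -0.030 with the 100 RPM filter, -0.16 with limma at either pseudocount and exact permutation, -0.018 with no filter, and -0.089 to 0.027 with an animal left out. In P24 against P16, leaving out an animal gave -0.014 to 0.11 for miR-142-5p and -0.085 to 0.27 for miR-142-3p. The other scalings moved the median of all tested miRNAs by up to 0.23 on the log2 scale, in NP16 against NP0.

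The arm ratio difference of P16 against NP16 was -0.60 to -0.40 with an animal left out, passing the limit only without P16 animal 29 (adjusted p 0.00691 to 0.283, exact permutation tests), and that of P24 against P16 was -0.16 to 0.22. Set up after the values had been seen, the difference of the edgeR fold changes of the arms gave -0.48 for P16 against NP16. The number of miRNAs called of all tested was 1 in place of 0 with DESeq2 in P16 against NP16 and in NP8 against NP0. In P16 against NP it was 3 with no filter, 1 with the 100 RPM filter, and 0 with the left-out library kept and with exact permutation, in place of 2. In NP16 against NP0 it was 1 with library totals, 1 with no filter and 3 with DESeq2. With an animal left out it was 0 to 1 in P16 against NP16, 1 of them without NP16 animal 16 or without P16 animal 29, and 0 to 2 in P24 against NP, 2 of them without P24 animal 24.

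With the heifer as a replicate block the paired fits called 0 miRNAs in each of the 4 comparisons within animals, and miR-142-3p stood at 0.37 in NP8 against NP0 and -0.36 in NP16 against NP8. The arm ratio of NP16 against NP8 gave an exact sign-flip p of 0.0547 in its paired form (adjusted 0.191). The block changed no call. Human-named rows of miR-142 or miR-223 were 0 in number, so adding them gave no value. Of the 3 miRNAs, miR-142-3p had the fewest reads, with 192 in its shallowest library. All intervals assume that libraries of a group vary as heifers do.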
